A study of Mus musculus with 82 samples.

Results

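Nascent transcription of 8 transcription factor genes of naive pluripotency was followed across 3 nuclear run-on assays of mouse ES cells. The genes were Esrrb, Tbx3, Klf2, Klf5, Tfcp2l1, Zfp42, Prdm14 and Nr5a2, chosen by name among the 24755 curated RefSeq genes that were counted. All libraries came from V6.5 ES cells, a single wild-type line of hybrid mouse origin grown in serum with leukaemia inhibitory factor (LIF) on gelatin, without any drug or genetic change. In each assay, polymerases engaged on DNA were allowed to add click-compatible nucleotides to their RNA, so that a read marks the place of an engaged polymerase. In AGTuC the reaction ran on bulk nuclei with a high concentration of the detergent sarkosyl, in which paused polymerases also resume (2 libraries, Exp125c_c01 and Exp125c_c02). In inAGTuC it ran on intact nuclei at a much lower detergent concentration, and the nuclei were then put into wells for barcoding (4 libraries of 96 barcodes each, Exp208_c12, Exp208_c14, Exp234_c11 and Exp261_c16). In scGRO–seq it ran under similarly mild conditions and single nuclei were sorted into wells (10 batches, 35 libraries with 2501 kept cells). The labels do not say that libraries of an assay came from separate cultures, so the tests measure the spread between these libraries or batches, which may be technical.

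In the naive state, which resembles the preimplantation epiblast, these factors bind one another's genes and those of the core factors, and LIF acts on the network through STAT3. Several of them can stand in for one another in keeping mouse ES cells undifferentiated, and most are shut down when cells pass to the formative and primed states. ES cells in serum with LIF are a mixture in which some of these genes, Zfp42, Tbx3, Esrrb and Prdm14 among them, are known to be expressed unevenly between cells.

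AGTuC libraries held 2231837 and 4755740 usable reads, inAGTuC libraries 623265 to 1462003 and scGRO–seq batches 220612 to 4918079. Of the reads on the 8 genes, 91.6 and 92.5% were sense in AGTuC, 49.2 to 83.4% in inAGTuC and 65.1 to 84.5% in scGRO–seq. The shares over all genes without a gene on the other strand were 87.7 to 88.1, 47.5 to 82.8 and 66.7 to 85.0%, respectively. The inAGTuC library Exp234_c11 stood apart with 49.2%, so that a read on these genes was as often antisense as sense, and the results of the fits are also given without it. In Exp208_c12, Tbx3 (12 sense and 14 antisense reads, 46.2% sense) and Klf5 (9 and 8, 52.9%) also had low shares. The other genes had 63.1% or more in that library. Kept cells carried 253 distinct barcode sequences, of which 225 were used by cells of more than 1 library. Pou5f1, Sox2 and Nanog, the core factors that define ES cells, had gene body reads in every AGTuC and inAGTuC library. Pou5f1 and Nanog also had them in every scGRO–seq batch, whereas the lowest level of Sox2 in a batch was 0.

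The level of a gene is given as sense reads on its body per kb of body, in reads per 1000000 gene body reads of the library or batch. The body leaves out the first 500 bp after each curated start and the last 500 bp of the curated span, and positions are those of GRCm38.

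**Figure D1:**
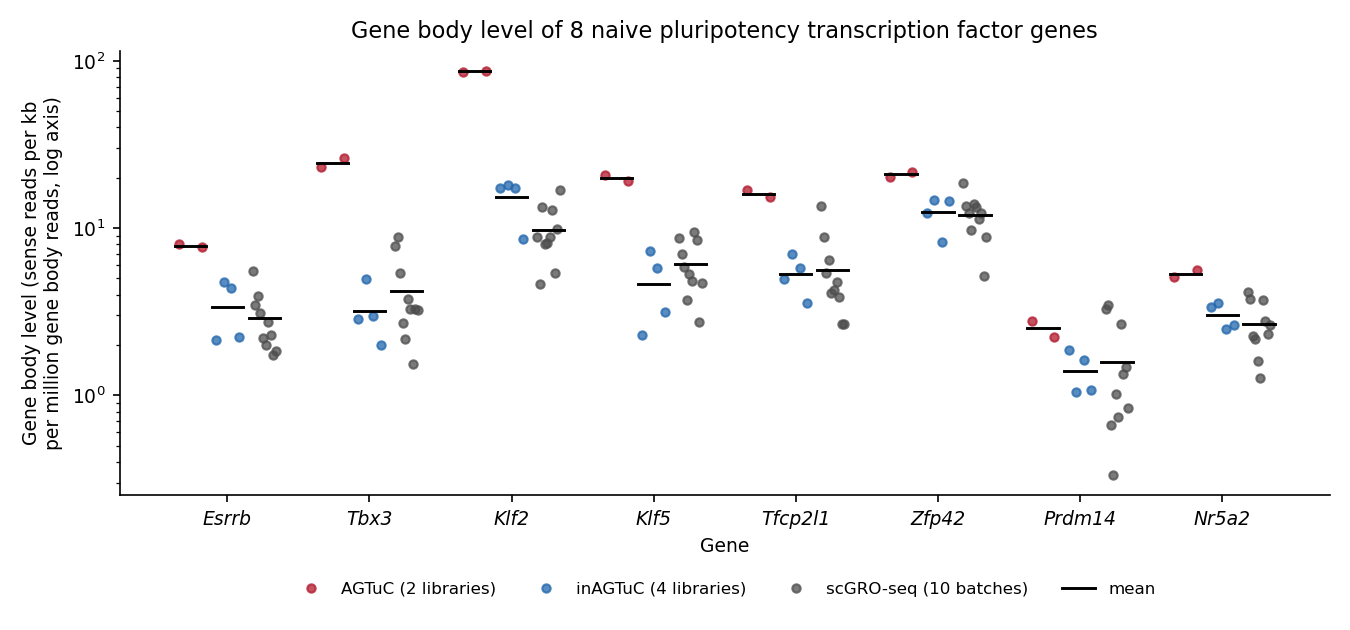
Gene body level (sense reads per kb per 1000000 gene body reads, log axis) of the 8 genes in 2 AGTuC libraries, 4 inAGTuC libraries and 10 scGRO–seq batches, with 1 point per library or batch and a bar at the mean. Both AGTuC points lie above all inAGTuC points for each gene, and Prdm14 is the gene whose AGTuC points lie within the range of the batches.

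Klf2 and Klf5, Krüppel-like factors that bind GC-rich sites, both had their highest levels in AGTuC. The level of Klf2 (chr8:72319062-72321654, plus strand) was 86.0 and 86.9 in AGTuC, 17.4, 18.1, 17.4 and 8.57 in inAGTuC, and 4.63 to 16.9 with a median of 8.82 over the batches. It was the highest of the 8 genes in AGTuC, and its AGTuC values did not overlap those of the other assays. Klf5 (chr14:99298691-99313412, plus strand) had levels of 20.7 and 19.1 in AGTuC, of 2.30, 7.26, 5.73 and 3.17 in inAGTuC, and of 2.75 to 9.47 with a median of 5.58 over the batches. Its groups were also separate, since the lower AGTuC library was above the highest of the other libraries and batches.

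Esrrb and Nr5a2 encode orphan nuclear receptors, of which ESRRB works beside the core factors and NR5A2 can activate Pou5f1. Esrrb (chr12:86361117-86521628, plus strand) had levels of 8.0 and 7.69 in AGTuC, of 2.14, 4.77, 4.41 and 2.23 in inAGTuC, and of 1.74 to 5.56 with a median of 2.53 over the batches. These are averages over a span of 161 kb in which mainly the last part held reads, as described with the start sites. Nr5a2 (chr1:136843584-136960448, minus strand) had levels of 5.09 and 5.61 in AGTuC, of 3.36, 3.59, 2.51 and 2.62 in inAGTuC, and of 1.26 to 4.13 with a median of 2.48 over the batches. AGTuC did not overlap the other assays for either gene, although the gap for Nr5a2 was small, from 4.13 in the highest batch to 5.09 in the lower AGTuC library.

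Tfcp2l1 encodes a grainyhead-like factor that acts downstream of LIF and STAT3, and Tbx3 encodes a T-box factor that is also responsive to LIF. Tfcp2l1 (chr1:118627945-118685168, plus strand) had levels of 16.9 and 15.3 in AGTuC, of 4.99, 7.04, 5.76 and 3.58 in inAGTuC, and of 2.68 to 13.5 with a median of 4.5 over the batches. The highest batch, Exp156, lay close below AGTuC, and all other batches were at 8.78 or less. Tbx3 (chr5:119670862-119684724, plus strand) had levels of 23.1 and 26.1 in AGTuC, of 2.85, 4.96, 2.96 and 1.99 in inAGTuC, and of 1.55 to 8.85 with a median of 3.28 over the batches. The level of Tbx3 was above that of Tfcp2l1 in both AGTuC libraries and below it in all 4 inAGTuC libraries.

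Zfp42 encodes REX1, a zinc finger protein whose loss marks the exit from the naive state, and Prdm14 encodes a PR-domain protein that holds down FGF signalling and DNA methylation. Zfp42 (chr8:43295067-43307009, minus strand) had levels of 20.2 and 21.7 in AGTuC, of 12.3, 14.8, 8.24 and 14.5 in inAGTuC, and of 5.18 to 18.6 with a median of 12.4 over the batches. Its AGTuC values lay above all others, and its ratio of the AGTuC to the inAGTuC mean, 1.68, was the smallest of the 8 genes. Prdm14 (chr1:13113428-13127163, minus strand) had the lowest level, at 2.80 and 2.25 in AGTuC, 1.86, 1.04, 1.64 and 1.07 in inAGTuC, and 0.333 to 3.47 with a median of 1.18 over the batches. With 101, 32 and 79 body reads in AGTuC, inAGTuC and scGRO–seq it was the gene with fewest reads in the first 2 of these assays and next to Klf2 in the third, and its AGTuC values overlapped those of the batches.

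The first comparison asked how the level in bulk nuclei at high detergent differs from that in intact nuclei. Tested with limma across all genes, 6 of the 8 genes were higher in AGTuC than in inAGTuC and none was lower, against a background in which 33.5% of 14749 genes were called in either direction and 16.7% were called higher in AGTuC. This main fit took libraries of 1 experiment as independent, although the correlation within experiments was 0.596 for level. With experiment as a random block, 3044 genes were called, 1669 of them higher in AGTuC, and of the 6 only Nr5a2 lost its call. In the main fit, Tbx3 had the largest difference, with a log2 difference in level of 3.05 ± 0.40 (SE) or 8.27-fold (limma adjusted p = 5.74e-05). Klf2 followed at 2.61 ± 0.35 (6.11-fold, limma adjusted p = 6.22e-05) and Klf5 at 2.19 ± 0.36 (4.56-fold, limma adjusted p = 0.000331). Over the inAGTuC libraries together, Tbx3 had 73 body reads, Klf2 43 and Klf5 122. The difference was 1.64 ± 0.36 for Tfcp2l1 (limma adjusted p = 0.00213) and 1.31 ± 0.33 for Esrrb (limma adjusted p = 0.00497). Nr5a2 passed the threshold narrowly, at 0.86 ± 0.30 (1.81-fold, limma adjusted p = 0.0312), and was not called with experiment as a random block (0.84, limma adjusted p = 0.0963), with median-of-ratios scaling (0.63, limma adjusted p = 0.143) or on a log2 scale with a pseudocount of 1 (0.84, limma adjusted p = 0.183). Zfp42, at 0.76 (95% confidence interval 0.13 to 1.39), and Prdm14, at 0.86 (-0.10 to 1.82), did not pass, with limma adjusted p of 0.057 and 0.154. Zfp42 lay close to the threshold and passed it at the same value, 0.76, with lower minimums of reads per gene, with near reads (50 bp) of a cell merged, and without Exp156 or Exp263 (limma adjusted p 0.0306 to 0.0468), but it was 0.58 without Exp234_c11 (limma adjusted p = 0.166). The median over the 8 genes was 1.48 and that over all genes tested was 0.19. Both AGTuC libraries were above all 4 inAGTuC libraries for 8 of 8 genes, which was so for 30.1% of all genes, and above all 10 batches for 7 of 8, which was so for 22.7%.

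Without the inAGTuC library Exp234_c11, the log2 difference was 1.46 for Esrrb, 3.06 for Tbx3, 2.72 for Klf2, 2.33 for Klf5 and 1.70 for Tfcp2l1, and all 5 were still called. Prdm14, at 0.96, was still not called (limma adjusted p = 0.164). The difference of Nr5a2 was 0.78 and was not called (limma adjusted p = 0.0773), as was also the case without either AGTuC library or without Exp261_c16. Esrrb was not called without Exp125c_c02 (limma adjusted p = 0.0693) or with the pseudocount of 1 (limma adjusted p = 0.0596). The AGTuC libraries are the only ones of their experiment, so assay and experiment cannot be told apart, and in these pooled libraries a smaller number of transcribing cells and less RNA per cell cannot be told apart either. The share of sense reads was higher in AGTuC for all genes together, and its part in the differences was not tested.

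Between scGRO–seq and inAGTuC, which both ran under mild conditions, none of the 8 genes was called by limma, and 0 of 14749 genes were called in all (percent called 0.0), with 794 genes (5.38%) at an unadjusted p under 0.05. The log2 differences of the 8 genes ran from -0.59 for Klf2 (95% confidence interval -1.33 to 0.14) to 0.38 for Klf5 (-0.28 to 1.05), with a median of -0.12, the same as over all genes tested. These intervals reached furthest for Klf2, at -1.33, then for Klf5, at 1.05, and reached -0.99 for Prdm14. Among the libraries and batches fitted, Exp208 is the one experiment with both assays, since the scGRO–seq libraries of Exp234 and Exp261 were not among the 10 batches. Within it, as a description, the log2 ratio of the single-cell to the intact-nuclei level was 0.19 for Esrrb, 0.47 for Tbx3, -0.41 for Klf2, 0.30 for Klf5, -0.15 for Tfcp2l1, -0.13 for Zfp42, -1.13 for Prdm14 and -0.61 for Nr5a2, with no test. Without Exp234_c11 none of the 8 was called either.

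**Figure D2:**
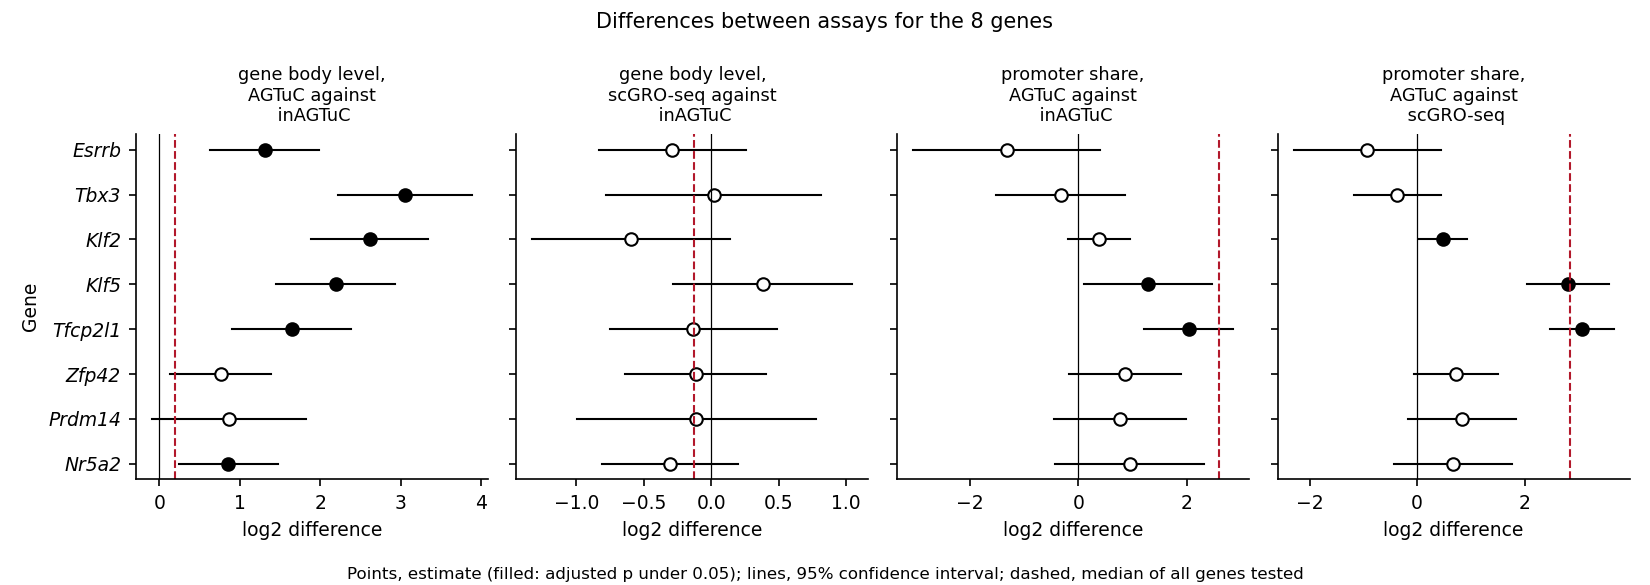
Log2 differences of the 8 genes in gene body level (left 2 panels) and in promoter over body reads (right 2 panels), with 95% confidence intervals and filled points where the limma adjusted p was under 0.05. The dashed line is the median of all genes tested, at 0.19, -0.12, 2.59 and 2.84 from left to right. In the left panel all 8 points lie to the right of the line, and in the panel of promoter reads against inAGTuC all 8 lie to the left of it. The promoter windows of Esrrb and Nr5a2 lie at curated starts that fewer AGTuC reads followed than their downstream GENCODE starts.

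The order of the genes by level differed between the assays, with Tbx3 taking another place in each. In AGTuC it was Klf2, Tbx3, Zfp42, Klf5, Tfcp2l1, Esrrb, Nr5a2 and Prdm14, and the 2 libraries agreed on every step but that from Zfp42 to Klf5. In inAGTuC it was Klf2, Zfp42, Tfcp2l1, Klf5, Esrrb, Tbx3, Nr5a2 and Prdm14, and all 4 libraries agreed on the steps from Zfp42 to Tfcp2l1, from Klf5 to Esrrb and from Nr5a2 to Prdm14. In scGRO–seq it was Zfp42, Klf2, Klf5, Tfcp2l1, Tbx3, Esrrb, Nr5a2 and Prdm14. Of its 7 steps, that from Nr5a2 to Prdm14 was larger than the spread over the batches, at 1.08 ± 0.56 (SD, n = 10 batches) and in the same direction in 10 of 10 (two-sided exact sign-flip test, p = 0.00195, Benjamini–Hochberg adjusted over 7 steps 0.0137). The other neighbours did not differ beyond their spread, with adjusted values of 0.0775 to 0.658 in the exact sign-flip test. The order was taken from the batches tested, so the pairs were not set in advance and the p-values are a description.

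The wider network was described in the same comparison. Of 18 other naive and core pluripotency genes, 16 had enough reads to be tested in limma, of which 13 were higher in AGTuC than in inAGTuC and none was lower, with a median log2 difference of 1.49, where 16.7% of all genes were called higher and their median was 0.19. Without Exp234_c11 it was 11 of 16, with Zfp57, a zinc finger gene of imprint upkeep, and Lin28a, an RNA-binding protein, no longer called, and the counts of the LIF and formative lists were the same. The 13 included Gbx2 (3.43, limma adjusted p = 0.000891), a homeobox gene responsive to LIF. Klf4 (2.73, limma adjusted p = 0.00105), the partner of Klf2 and Klf5, was also among them. So was Tdh (2.68, limma adjusted p = 0.000632), an enzyme of threonine breakdown. Gbx2 had 142 body reads in AGTuC, 8 in inAGTuC and 20 in scGRO–seq. It reached the minimum of 50 for the fit only through AGTuC, so its call depends in part on that minimum. Sox2 (2.30), Nanog (2.01) and Pou5f1 (1.64) were also called, whereas Stat3 (0.31), Nr0b1 (1.08) and Tcl1 (0.95) were not. Among 8 components of LIF signalling, Socs3 (3.25) and Pim1 (2.27), both targets of STAT3, were higher, and the other 6, among them the receptor genes Lifr (0.49) and Il6st (0.64), did not pass, a share of the list near that of all genes. Of 13 formative and primed genes tested, Etv4, Etv5, Dnmt3a, Foxd3 and Nodal were higher in AGTuC. Fgf5, a growth factor of the primed state, was lower, with 1 read on its body in AGTuC and 20 in inAGTuC. Foxd3 had 46, 3 and 15 body reads in AGTuC, inAGTuC and scGRO–seq, so it too reached the minimum of 50 only through AGTuC. Fgf5 reached it only through scGRO–seq, with 152 reads. The calls of Foxd3 and Fgf5 thus also depend in part on that minimum.

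No marker of primitive endoderm (4 of 6 tested, median -0.91), trophoblast (3 of 5, -2.28) or other tissues (3 of 10, -1.29) was called in either direction. Of 2 fibroblast markers tested Twist2 was lower (median -2.44). Some of these genes reached the minimum of 50 body reads for the fit mainly through the mild assays. Body reads in AGTuC, inAGTuC and scGRO–seq were 3, 20 and 48 for Elf5 and 3, 40 and 216 for Apob. Those of Twist2 were 2, 26 and 66. Eomes (27, 8 and 33) and Nphs1 (490, 246 and 410) had more in AGTuC than in inAGTuC. Genes low in every assay were not fitted, so the trophoblast, fibroblast and other-tissue medians are no support for lower levels in AGTuC. The 10 genes of other tissues had levels with a median of 0.0196 in AGTuC, 0.458 in inAGTuC and 0.286 in scGRO–seq, and the highest of them, Nphs1, reached 5.42, 4.45 and 2.83. Counted over the span in the same way, Prdm14 had 2.45, 1.31 and 1.28, which is below Nphs1 in each assay. Esrrb (3.29 and 2.44) and Nr5a2 (2.92 and 2.17) were also below Nphs1 in inAGTuC and scGRO–seq, and Tbx3 (3.23) in inAGTuC. The next highest genes of other tissues in scGRO–seq were Apob at 1.11 and Gfap at 0.395.

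Outside these lists, the genes whose log2 reads per 1000000 followed the mean standardised profile of the 8 most closely over the 16 libraries and batches were Klf3 (Pearson r = 0.951), Dcp2 (0.949), Snx18 (0.945), Nynrin (0.942) and Dmtn (0.936). They were taken from 6975 candidates, of which 31 had a value above 0.9. Every one of the 5 was highest in the 2 AGTuC libraries and, among the batches, in Exp156, and since all genes share these libraries and their depth the values are a description.

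Reads along the genes were set against the annotated starts. Esrrb has curated starts at 86361117 and, 60.5 kb further on, at 86421644. In AGTuC the first 500 bp after them held 0 and 6 sense reads, whereas the first 500 bp after the start of a GENCODE transcript, Esrrb-206, held 85. This start lies at 86470117, 109 kb into the span, at the end of intron 1 of both curated transcripts and 29 bases before exon 2 (86470146 to 86470555). Of the sense reads on the span, 97.2% in AGTuC (3973 of 4087), 81.6% in inAGTuC (838 of 1027) and 87.4% in scGRO–seq (1752 of 2005) lay after it. The share was 97.7 and 97.0% in the AGTuC libraries, 64.7% in Exp234_c11 and 85.4 to 89.2% in the other inAGTuC libraries, and 78.8 to 94.6% in the batches. AGTuC held 14 sense reads in the 5 kb before this start and 511 in the 5 kb after it. The fullest 50 bp of the gene also lay at about 109 kb in each assay. Counted from this start, the level of Esrrb was 23.6 ± 0.96 (SD, n = 2) in AGTuC, 8.19 ± 3.36 (n = 4) in inAGTuC and 7.74 ± 3.60 (n = 10) in scGRO–seq. The log2 difference between AGTuC and inAGTuC from this start was 1.60 (limma adjusted p = 0.00174), in place of 1.31 over the curated body, and 1.62 without Exp234_c11 (limma adjusted p = 0.00448). This start was noticed in the reads themselves, so its counts are a description.

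Nr5a2 also had many reads next to downstream GENCODE starts, but unlike Esrrb it also had many reads before them. Its curated starts at 136960448 and, 6.82 kb into the gene, at 136953630 held 0 and 27 AGTuC sense reads in their first 500 bp. The GENCODE starts of Nr5a2-202 (136949562, in intron 2) and Nr5a2-206 (136949173), 10.9 and 11.3 kb into the gene, were followed by 87 and 69, windows that overlap. After the first of the GENCODE starts lay 89.2% of sense reads in AGTuC, 93.1% in inAGTuC and 94.8% in scGRO–seq and 106 kb of the gene. In AGTuC the density was 20.6 reads per kb before that start and 17.5 after it, against 1.05 and 77.1 at Esrrb-206, while at Nr5a2-202 it was 4.23 before and 5.82 after in inAGTuC and 6.15 and 11.6 in scGRO–seq. Counted from that start, the level of Nr5a2 was 5.06 ± 0.37 (SD, n = 2) in AGTuC, 3.06 ± 0.59 (n = 4) in inAGTuC and 2.78 ± 0.99 (n = 10) in scGRO–seq, and the log2 difference of AGTuC from inAGTuC was 0.76 and was not called (limma adjusted p = 0.059), nor was it without Exp234_c11 (0.65, limma adjusted p = 0.14). Upstream antisense reads stood at this place as well, with 72 in the 1 kb before Nr5a2-202 in AGTuC against 4 and 15 before the curated starts. Esrrb-206 had 13 AGTuC antisense reads in the 1 kb before it and 15 in the 1 kb after it. At Tfcp2l1, Klf5, Klf2 and Zfp42, the curated starts held 380, 233, 297 and 95 AGTuC sense reads in their first 500 bp, and Tbx3 held 62 after the first of its starts. Prdm14 held 6.

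**Figure D3:**
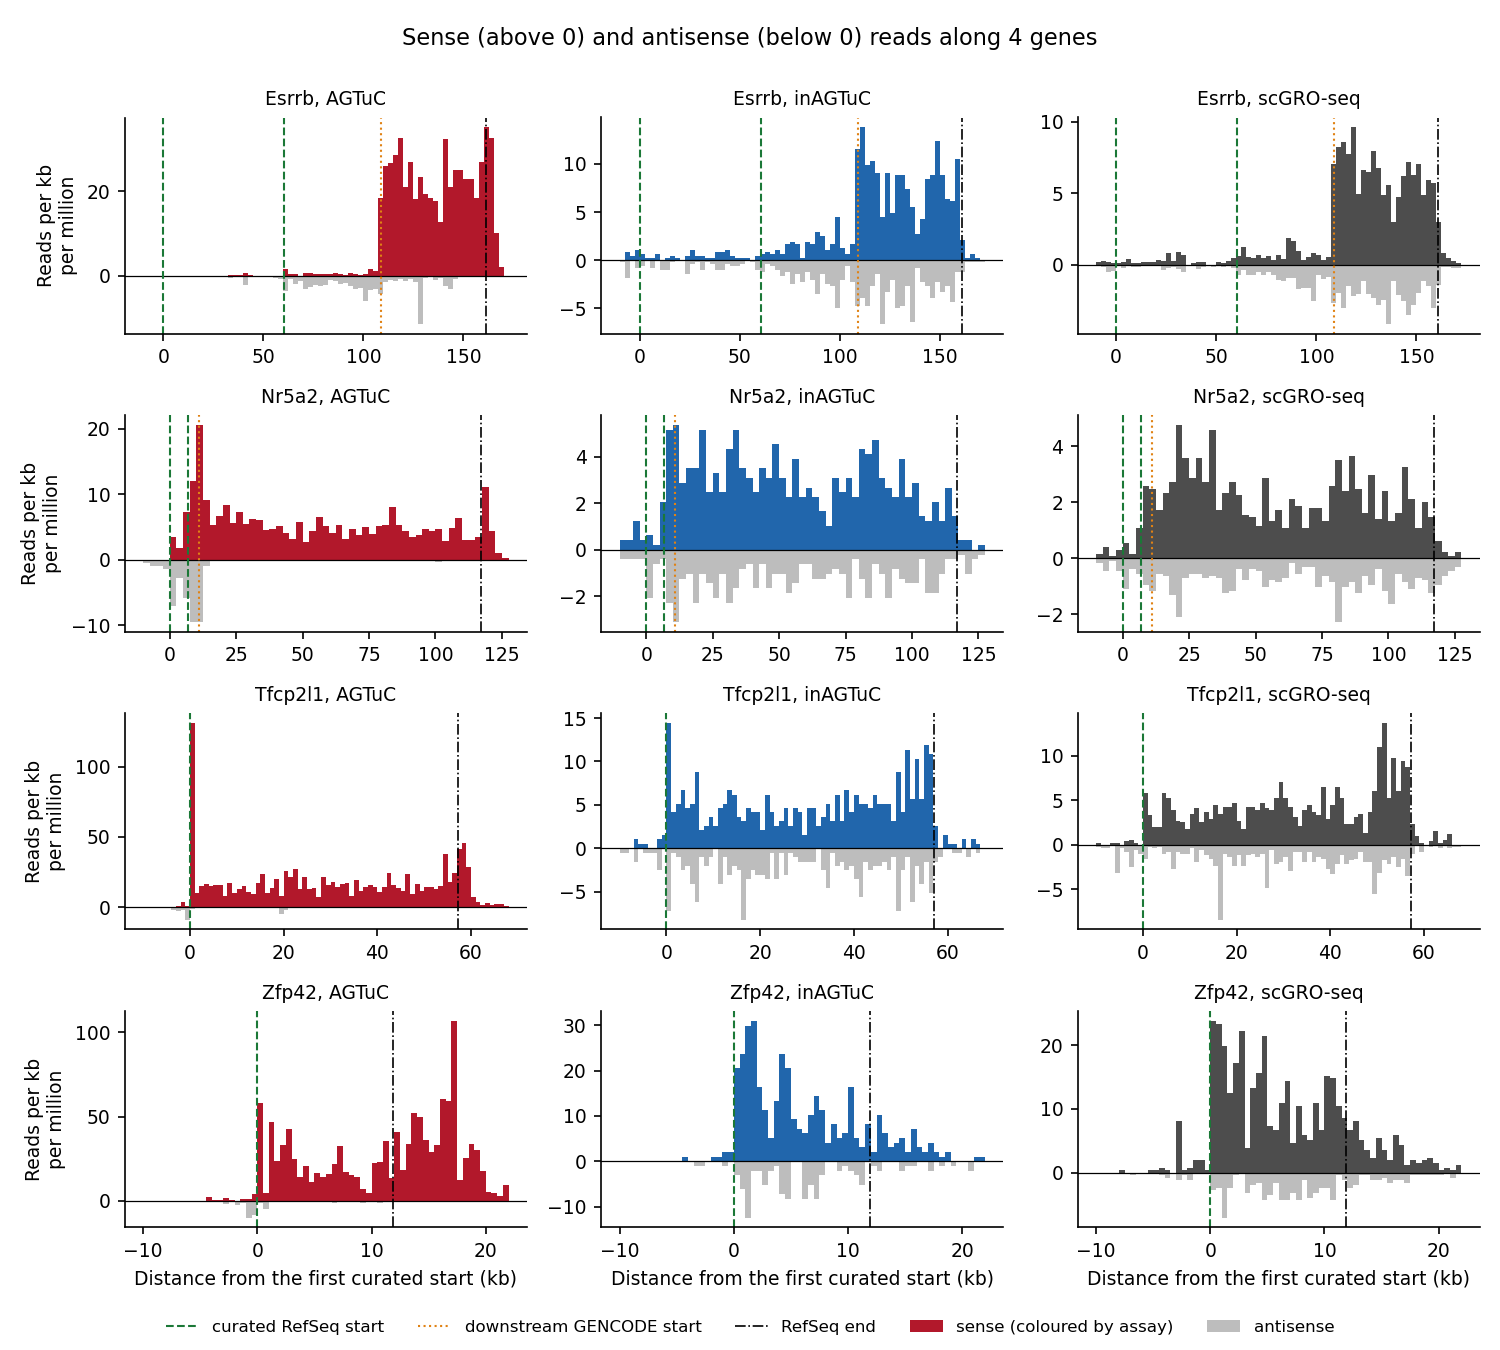
Sense reads (above 0) and antisense reads (below 0), in reads per kb per 1000000 gene body reads, along Esrrb, Nr5a2, Tfcp2l1 and Zfp42, against the distance from the first curated start in kb, summed over the libraries of each assay. Dashed lines mark curated RefSeq starts, dotted lines the downstream GENCODE start of Esrrb and Nr5a2 and dash-dotted lines the RefSeq end. Sense reads of Esrrb rise at 109 kb in all 3 assays, and AGTuC reads of all 4 genes go on past the end.

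The promoter share is the part of the sense reads of a gene, on its promoter windows and body, that lies within 500 bp after a curated start. It was 22.3 and 24.1% over all genes in AGTuC, 3.82 to 6.14% in inAGTuC and 2.64 to 6.57% in the batches. Tfcp2l1 had 11.7 and 11.5% in AGTuC, 2.74, 2.72, 5.41 and 1.82% in inAGTuC and 0 to 5.08% over the batches (median 1.46%), so its AGTuC values stood apart from all others. Klf5 had 20.3 and 21.3% in AGTuC, 11.1, 11.8, 17.1 and 2.78% in inAGTuC and 0 to 14.3% over the batches (median 6.12%), again without overlap. Klf2, whose whole span is 2.59 kb, had 42.3 and 38.4% in AGTuC, 3 of 10 reads or 30%, 23.5, 42.9 and 35.3% in inAGTuC and 0 to 50.0% over the batches (median 31.4%), and its groups overlapped. Zfp42 had 11.7 and 10.9% in AGTuC and 2.67 to 11.4% in inAGTuC, and Tbx3 had 7.53 and 7.96% in AGTuC and 4.76 to 23.8% in inAGTuC. For these genes the assays overlapped as well. Esrrb, Prdm14 and Nr5a2 had 6, 6 and 27 promoter reads in the 2 AGTuC libraries together, or 0.148, 5.61 and 1.3% of their reads, and differences under the width of their intervals were not detectable at this depth. In the fit that follows, promoter and body reads were added in each gene's own ratio, so estimates for genes with few promoter reads depend on the added reads.

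In limma on the log2 ratio of promoter to body reads, AGTuC was higher than scGRO–seq for 3 of the 8 genes and lower for none, where 86.9% of 10917 genes were called and 86.2% were called higher. The log2 difference was 3.07 ± 0.28 for Tfcp2l1 (8.38-fold, limma adjusted p = 6.77e-08), 2.81 ± 0.37 for Klf5 (7.01-fold, limma adjusted p = 2.29e-06) and 0.48 ± 0.21 for Klf2 (1.4-fold, limma adjusted p = 0.0439). The values of Tfcp2l1 and Klf5 lay close to the median over all genes, 2.84, whereas the median of the 8 was 0.70. Here and against inAGTuC, counts and medians of the 8 include Prdm14, with 6 AGTuC promoter reads. They also include Esrrb and Nr5a2, whose curated starts were followed by fewer AGTuC reads than their downstream GENCODE starts. Reads after those downstream starts count as body reads in these fits. Without Exp234_c11 the same 3 genes were called, at 3.07, 2.81 and 0.49, where 8560 of 9698 genes were called higher. Klf2 was no longer called with experiment as a random block (0.44, limma adjusted p = 0.0821), at a mapping quality of at least 10, with a window of 250 bp, with 0.5 reads added to both counts or without weights (limma adjusted p 0.0568 to 0.502), nor without any 1 of Exp125c_c01, Exp208_c12, Exp261_c16, Exp156, Exp160, Exp208, Exp236, Exp260b and Exp264a (limma adjusted p 0.0509 to 0.163), and Prdm14 (1.20) was called without Exp236 and Zfp42 (0.88) without Exp264a. With windows of 1000 bp Prdm14 (1.39) and Nr5a2 (1.39) were called, and with windows of 250 bp Prdm14 (0.95). In the windows of 500 bp Prdm14 had 2 reads over the batches, both in Exp236. Without that batch scGRO–seq had none, so the call of Prdm14 there rests on the reads added. Against inAGTuC, 2 of 8 were higher, where 77.9% of genes were called and 77.4% were called higher. These were Tfcp2l1 at 2.04 ± 0.39 (4.10-fold, limma adjusted p = 0.00021) and Klf5 at 1.28 ± 0.56 (2.44-fold, limma adjusted p = 0.0461), with a median of 0.82 over the 8 and 2.59 over all genes. Without Exp234_c11 both were called, at 2.34 and 1.66, and Nr5a2 was called as well, at 1.65 (limma adjusted p = 0.0238). Nr5a2 was also called with windows of 1000 bp (1.96, limma adjusted p = 0.00674) and Prdm14 with windows of 250 bp (1.16, limma adjusted p = 0.0405). Klf5 lost its call with shared reads counted, at a mapping quality of at least 10, with a window of 1000 bp, with 0.5 reads added to both counts, without weights or with a minimum of 5 reads (limma adjusted p 0.0514 to 0.198), and without any 1 of Exp125c_c01, Exp125c_c02, Exp208_c12, Exp208_c14, Exp261_c16, Exp156, Exp160 and Exp260 (limma adjusted p 0.0504 to 0.277), and its value fell most, to 0.75, without Exp261_c16. Esrrb had the lowest estimates, -0.93 (95% confidence interval -2.30 to 0.45) against scGRO–seq and -1.32 (-3.05 to 0.41) against inAGTuC. Esrrb was called lower in AGTuC in several alternatives. With the outermost start alone the estimates were -1.96 and -2.45 (limma adjusted p = 0.00063 and 0.000686). Esrrb was also called lower than scGRO–seq with 0.5 reads added to both counts (-1.97, limma adjusted p = 0.0174). It was called lower than inAGTuC at a mapping quality of at least 10 (-1.81, limma adjusted p = 0.0192) and without Exp208_c14 (-2.05, limma adjusted p = 0.0467). Without Exp125c_c02, which leaves 1 AGTuC library, the estimates were -2.58 and -3.03. The first 500 bp after the outermost start held 0 sense reads in AGTuC, 2 in inAGTuC and 1 in scGRO–seq. After both curated starts the batches held 5, with 0 in 8 of 10 batches. At such counts the ratio depends on the body reads and the reads added, so these calls are no support for a difference. Exp125c_c01 had 0 promoter reads on Esrrb against 1356 body reads, a share of 0 with a 95% Wilson interval of up to 0.282%. Without Exp125c_c01 the estimate against scGRO–seq was 0.02. In the 500 bp after Esrrb-206 the share was 1.36 and 2.56% in AGTuC, 0.781 to 8.67% in inAGTuC and 1.00 to 16.4% over the batches, of which the ranges overlap. In the 500 bp after Nr5a2-202 it was 4.45 and 4.80% in AGTuC, 0.855 to 2.68% in inAGTuC and 0 to 3.33% over the batches. Both starts were chosen for their AGTuC reads in these same 500 bp, so the higher AGTuC values at Nr5a2-202 are no support for a difference.

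The 250 bases before a start are shown for Tfcp2l1, Klf2 and Zfp42, which held most promoter reads among the genes with a sequence to hand, and for Esrrb and Nr5a2 at the downstream GENCODE start that most AGTuC reads followed. Entries for 5 of the 8 genes were found in the promoter table of RefSeq (GRCm38), from which the sequences of Klf2, Tfcp2l1 and Zfp42 were taken, and those of Esrrb-206 and Nr5a2-202 were read from the GRCm38 genome. No sequence is given for Klf5, Tbx3 and Prdm14. The stretches are chr1:118627695-118627944, chr8:72318812-72319061 and chr8:43307010-43307259 for Tfcp2l1 (plus strand), Klf2 (plus) and Zfp42 (minus), and chr12:86469867-86470116 and chr1:136949563-136949812 for Esrrb-206 (plus) and Nr5a2-202 (minus). All are written 5′ to 3′ on the strand of the gene and end at the base before the start. Capitals mark matches, on either strand, to TCAAGGTCA for ESRRB, GGGTGTGG for the KLF family, GGGCGG for the GC box, ATGCAAAT for the octamer, TATAAA for the TATA box, TTCNNNGAA for STAT, AGGTGTGA for T-box factors and the CCAAT box.
Tfcp2l1: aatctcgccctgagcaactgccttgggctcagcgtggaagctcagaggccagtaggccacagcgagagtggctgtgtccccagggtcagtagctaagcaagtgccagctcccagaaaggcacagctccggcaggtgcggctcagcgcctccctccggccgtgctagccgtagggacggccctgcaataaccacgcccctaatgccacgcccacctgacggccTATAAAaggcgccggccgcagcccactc
Klf2: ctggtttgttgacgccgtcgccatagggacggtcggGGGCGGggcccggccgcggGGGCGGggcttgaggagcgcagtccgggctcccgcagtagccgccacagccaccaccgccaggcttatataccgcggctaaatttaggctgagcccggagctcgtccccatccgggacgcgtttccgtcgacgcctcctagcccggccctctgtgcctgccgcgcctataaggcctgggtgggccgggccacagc
Zfp42: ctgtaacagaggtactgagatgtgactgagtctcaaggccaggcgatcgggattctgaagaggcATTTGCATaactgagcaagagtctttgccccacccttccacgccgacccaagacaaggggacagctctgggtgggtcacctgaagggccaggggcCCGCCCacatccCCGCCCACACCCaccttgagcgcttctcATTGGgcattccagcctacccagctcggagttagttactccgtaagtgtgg
Esrrb-206: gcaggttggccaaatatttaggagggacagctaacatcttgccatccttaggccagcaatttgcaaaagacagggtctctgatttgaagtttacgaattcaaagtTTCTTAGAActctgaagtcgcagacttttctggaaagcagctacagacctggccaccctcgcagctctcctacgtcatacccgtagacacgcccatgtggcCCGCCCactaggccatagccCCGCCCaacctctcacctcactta
Nr5a2-202: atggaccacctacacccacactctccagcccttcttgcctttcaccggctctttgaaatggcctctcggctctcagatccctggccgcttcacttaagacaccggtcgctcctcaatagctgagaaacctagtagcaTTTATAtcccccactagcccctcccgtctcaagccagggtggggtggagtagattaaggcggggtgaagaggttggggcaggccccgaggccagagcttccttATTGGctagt

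Tfcp2l1, called for promoter reads in both comparisons, had a TATA box that begins 28 bases before its start, a match found within 250 bases of 12.4% of the 32851 promoters in the table. Klf2 had 2 GC boxes (32.7% of promoters hold 1) in a stretch of 71.2% G and C. Zfp42 had an octamer (1.6% of promoters), the site bound by OCT4 and its relatives, on the other strand 186 bases before the start, and a KLF motif (3.2%) that overlaps 1 of its 2 GC boxes. A CCAAT box (33.8%) lay 51 bases before the start of Zfp42, also on the other strand. The stretch before Esrrb-206 had a STAT motif (7.02%), a pattern that matches on both strands at once, 145 bases before the start, and 2 GC boxes, and it ends in intron 1 just before exon 2. That before Nr5a2-202 had a TATA box on the other strand 113 bases away and a CCAAT box (33.8%) 10 bases away. The 250 bases before the curated starts of these genes, which AGTuC reads followed less, held such matches as well, with a STAT motif and a CCAAT box for Esrrb and a TATA box and a CCAAT box for Nr5a2. No match to the ESRRB motif (0.387% of promoters) or the T-box motif (1.12%) was present in the 5 stretches. These matches are letters in a window and not sites of binding.

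Past the RefSeq end, read density in the next 5 kb was compared with that of the span. In AGTuC the ratio was 4.68 and 4.29 for Esrrb, whose span is largely empty, 1.85 and 1.84 for Zfp42, 1.58 and 1.41 for Nr5a2, 1.51 and 1.29 for Tfcp2l1 and 1.04 and 1.11 for Klf5. For these 5 genes both AGTuC libraries lay above all inAGTuC libraries and batches, with or without Exp234_c11. This was so for 33% of 5820 genes with at least 50 reads in each assay and no other gene within 10 kb past the end, and for 35% without Exp234_c11. Of the 8 genes, Prdm14 is not among those 5820. The highest of the others were 1.4 for Esrrb (Exp246), 0.571 for Zfp42 (Exp234_c11, or 0.459 in Exp260b without that library), 0.766 for Nr5a2 (Exp160), 0.582 for Tfcp2l1 (Exp264a) and 1.03 for Klf5 (Exp156). Klf2 (0.455 and 0.545), Tbx3 (0.777 and 0.538) and Prdm14 (0.720 and 1.29) overlapped the batches. Over the 8 genes the median of the pooled ratio was 1.23 in AGTuC, 0.19 in inAGTuC and 0.369 in scGRO–seq, and over the 5820 genes it was 1.23, 0.363 and 0.37. Zfp42 had 669 AGTuC reads in the 5 kb past its end and 868 on its whole span of 11.9 kb. The medians over all genes thus differed between the assays in the same direction as those of the 8.

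**Figure D4:**
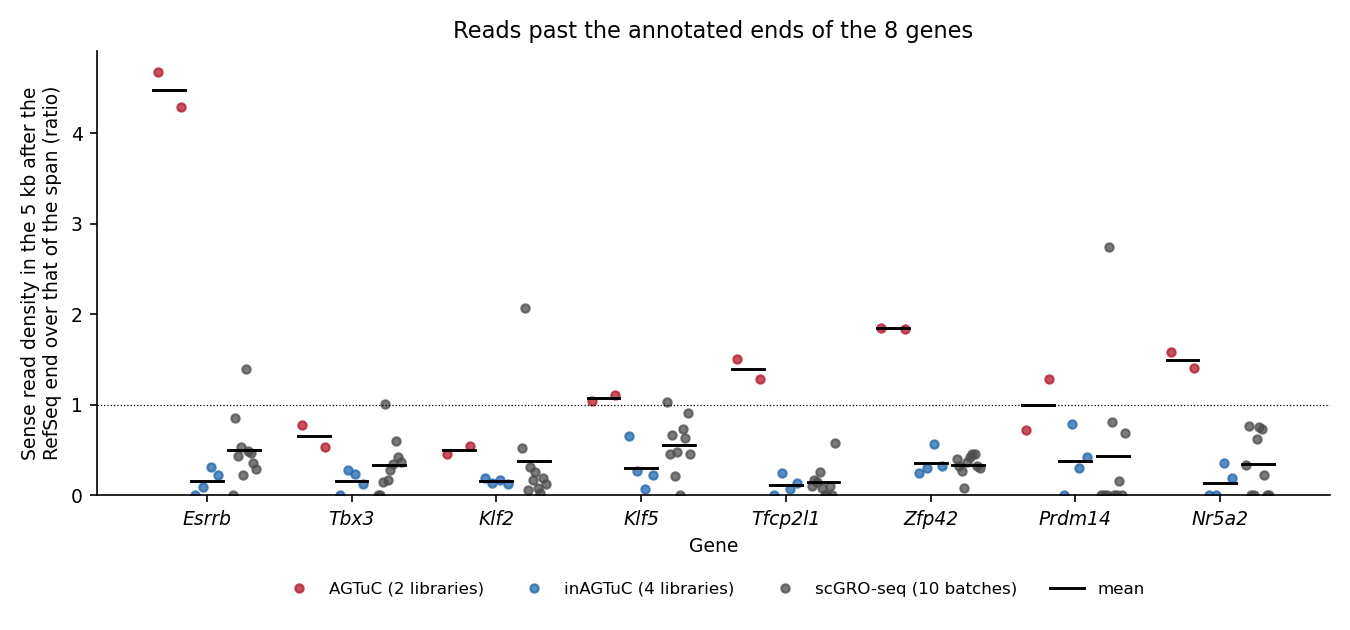
Sense read density in the 5 kb after the RefSeq end divided by that of the span, for the 8 genes in 2 AGTuC libraries, 4 inAGTuC libraries and 10 scGRO–seq batches, with 1 point per library or batch and a bar at the mean. The dotted line marks equal density. AGTuC points reach 4.68 for Esrrb and stay below 1 for Klf2 and Tbx3.

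In single cells, 83.9% of the 2501 cells had a sense read on the span of at least 1 of the 8 genes. Of all cells, 31% had reads on 1 of them, 26.9% on 2, 15.8% on 3 and 7.28% on 4, and cells with more genes had more UMIs, with a median of 2817 at none and 6655 at 4. The share of cells with a read was largest for the longest genes. Esrrb was read in 48.8% of cells (1221 cells) and in 30.3 to 71.3% by batch, Nr5a2 in 37.0% (25.8 to 46.5%), Tfcp2l1 in 35.5% (17.5 to 65.3%) and Zfp42 in 24.7% (7.57 to 35.8%). Klf5 was read in 15.0% (5.18 to 18.4%), Tbx3 in 7.92% (4.36 to 17.4%), Klf2 in 4.64% (1.09 to 6.45%) and Prdm14 in 3.44% (0.909 to 5.94%). Intervals at these numbers of cells are narrow over all cells, such as 46.9 to 50.8% for Esrrb and 2.79 to 4.23% for Prdm14 (95% Wilson interval, counting error only).

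The batches differ in depth, with median UMIs per kept cell of 1873 to 4236, so each cell was also thinned to 1000 UMIs. Thinned shares are expected shares and not counts of cells, so they can be smaller than 1 cell of a batch. The mean over batches was then 19.2 ± 9.99% for Esrrb, 13.7 ± 10.0% for Tfcp2l1, 12.9 ± 5.42% for Nr5a2, 7.02 ± 3.56% for Zfp42, 4.32 ± 2.07% for Klf5, 2.89 ± 2.38% for Tbx3, 1.32 ± 0.507% for Klf2 and 1.08 ± 0.860% for Prdm14 (SD, n = 10). Exp156 had the highest share for 7 of the 8 genes, at 45% for Esrrb and 40.4% for Tfcp2l1, where the next batch had 25.6 and 17.1%. Klf2 was the exception, with its highest share, 2.00%, in Exp246. Exp156 also had the fewest UMIs per cell and the largest share of reads in gene bodies, 64.7% against 35.4 to 50.1% in the other batches, and the part of this in its high shares was not tested. Without Exp156 the means were 16.3 ± 4.44% for Esrrb, 10.7 ± 3.66% for Tfcp2l1, 11.5 ± 3.10% for Nr5a2, 6.01 ± 1.67% for Zfp42 and 0.848 ± 0.485% for Prdm14 (SD, n = 9). Exp263 had the lowest share for Esrrb, Klf5 and Zfp42.

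**Figure D5:**
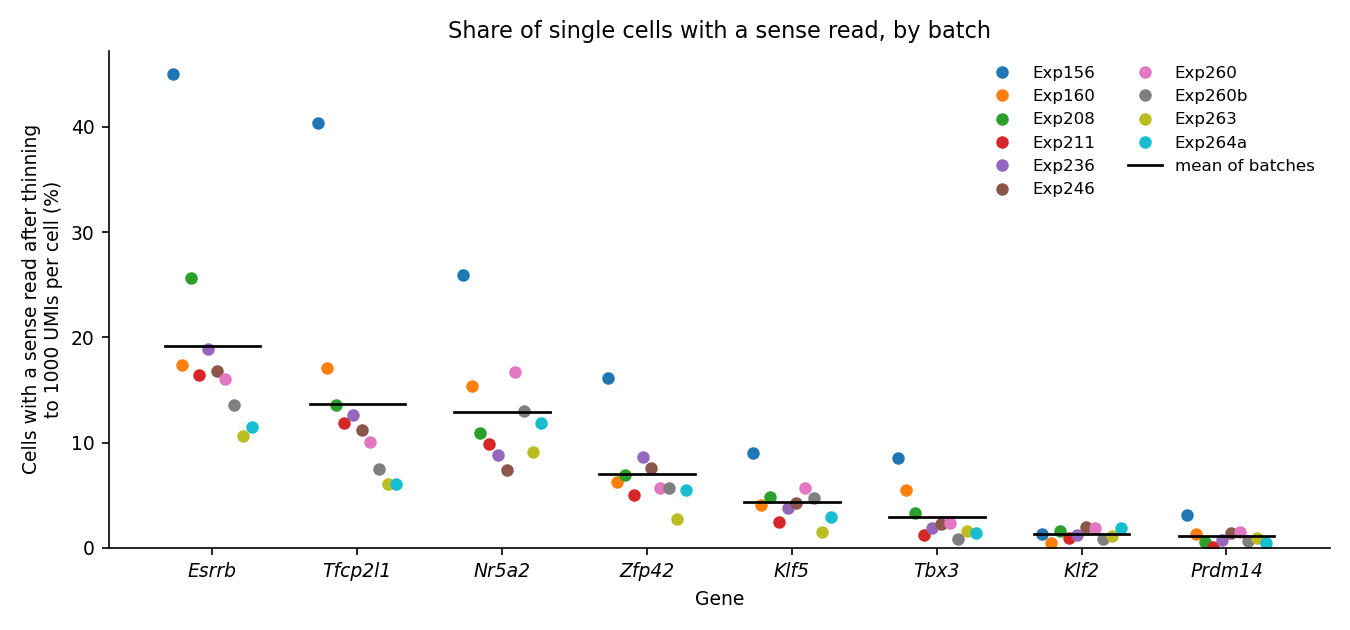
Expected share of kept cells with at least 1 sense read after each cell was thinned to 1000 UMIs, for the 8 genes and 10 scGRO–seq batches, with 1 point per batch and a bar at the mean of the batches. Exp156 lies at the top for each gene but Klf2, and the genes run from a mean of 19.2% (Esrrb) to 1.08% (Prdm14).

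Per kb of span the order was another one, with a thinned share over all cells of 0.574% per kb for Zfp42, 0.473% for Klf2, 0.27% for Klf5, 0.198% for Tfcp2l1, 0.15% for Tbx3, 0.107% for Esrrb, 0.0982% for Nr5a2 and 0.0628% for Prdm14. In 10 genes of other tissues, counted in the same cells, it had a median of 0.0114% and reached 0.06% for Apob and 0.131% for Nphs1. Esrrb, Nr5a2 and Prdm14 thus lay below Nphs1 and above the other genes of other tissues, with Prdm14 close to Apob. The value of Esrrb is an average over a span whose first 109 kb held few reads. Nphs1 itself had a level of 5.42 in AGTuC. Antisense reads on the same spans were found in 26% of cells for Esrrb, 16.2% for both Nr5a2 and Tfcp2l1, 6.04% for Zfp42, 5.36% for Klf5, 2.76% for Tbx3, 2.12% for Prdm14 and 1.60% for Klf2. For each gene the sense share was larger over all cells, by the least for Prdm14 (3.44 against 2.12%). In Exp236, the largest batch, Prdm14 had 37 sense and 43 antisense reads (46.2% sense). In the other batches its sense reads were as many as the antisense reads or more.

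Some cells had several reads of the same gene, at places far apart or close together. Over the 8 genes, 35.5% of cells had 2 or more reads on the same gene. This was so for Esrrb in 482 cells (19.3%), Tfcp2l1 in 293 (11.7%), Nr5a2 in 268 (10.7%), Zfp42 in 115 (4.60%), Klf5 in 59 (2.36%), Tbx3 in 18 (0.720%), Klf2 in 3 (0.120%) and Prdm14 in 2 (0.0800%). By batch it was 5.58 to 37.6% for Esrrb, 1.59 to 31.7% for Tfcp2l1 and 5.18 to 14.9% for Nr5a2. Leaving out 1 batch gave shares of 2.42 to 5.27% for Zfp42, 1.47 to 2.62% for Klf5 and 0 to 0.152% for Klf2. Such cells held 63.1% of the reads of Esrrb, 55.1% of those of Tfcp2l1 and 49.4% of those of Nr5a2. Their outermost reads were a median of 27.4 kb apart in Esrrb, 43.6 kb in Nr5a2, 19.6 kb in Tfcp2l1, 4.83 kb in Zfp42, 4.79 kb in Tbx3 and 4.01 kb in Klf5. All reads fell within 50 bp of one another in 8 of 482 cells for Esrrb and in 12 of 293 for Tfcp2l1. For Prdm14 this was so in both cells, and in each of them reads also repeated a UMI.

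After thinning to 1000 UMIs, the share of cells with 2 or more reads had a median over batches of 1.83% for Esrrb (0.585 to 11.6%), 0.853% for Tfcp2l1 (0.136 to 8.26%), 0.666% for Nr5a2 (0.491 to 3.69%) and 0.146% for Zfp42 (0.0238 to 1.59%), with Exp156 the highest of the batches for these 4 genes. Without Exp156 the medians were 1.75, 0.636, 0.634 and 0.134% and the highest shares 3.95, 2.51, 1.44 and 0.564%. The fullest cell for Esrrb, of Exp208, had 12 reads at 12 positions between 80.7 and 155 kb, no 2 of them within 1 kb, and 27392 UMIs in all. That for Nr5a2, of Exp236, had 7 reads at 7 positions and 22018 UMIs. In contrast, the fullest cell for Tfcp2l1, of Exp211, had 16 reads with 16 UMIs at only 3 positions, of which 14 within 1 kb. These cells of Esrrb, Nr5a2 and Tfcp2l1 had 6.40 to 7.96 times the median UMIs of all cells. The fullest cell for Prdm14, of Exp160, had 4 reads of 1 UMI within 50 bp at 1.14 times the median.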

How the data were processed

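Nascent RNA reads of V6.5 ES cells were taken from 82 lists, 1 per library. Before they deposited them, the authors had trimmed reads with Cutadapt, split them by barcode with Flexbar, removed those of ribosomal DNA, mapped the rest to mm10 (GRCm38) with bowtie2 and collapsed reads of the same UMI and position with UMI-tools (versions not given in the sources used here). Each line of the deposited lists is 1 read with its barcode and UMI, and its only numeric value is a score, the mapping quality given by the authors' aligner, of 44 at most, so reads were counted here.

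Reads whose molecule was in more than 1 list, 19.2% of lines, were left out. In 1 case 99.7% of a scGRO–seq list (Exp261_c16) was shared with the inAGTuC list carrying that name, and it was not used as another library. The shared reads thus stand under both assay names, and they were counted as inAGTuC. The 10 batches have 53 scGRO–seq libraries, of which 35 were kept. Cells needed 1000 UMIs and 750 features, and libraries 24 such cells. Cells of a batch were summed. RNA was read on the strand opposite to the listed one.

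Sense reads on the bodies of genes with at least 50 body reads were fitted with voom in limma, with the 2 AGTuC libraries, 4 inAGTuC libraries and 10 batches in 1 fit. The log2 ratio of promoter to body reads was fitted with limma, weighted by reads, for genes with at least 20 reads per assay. Before the log2 was taken, 0.5 reads were added to the promoter count. Body reads were added in the gene's own ratio, from the mean of its promoter shares in the assays. This draws ratios with few promoter reads towards that mean, so such estimates depend on the added reads. The added reads and weights of this fit were set after the data had been seen, on simulated data. Calls are at a Benjamini-Hochberg adjusted p under 0.05 over all genes fitted, and both fits were tested on simulated data. Intervals of shares are 95% Wilson intervals, which hold counting error alone.

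The 8 genes, the other gene lists and the tests were chosen with earlier results of these data known. Genes named are the 8, those of the lists and the 5 outside them with the most similar profile. The downstream starts are the GENCODE starts, outside the curated ones, that had most AGTuC reads in their first 500 bp, and they were chosen after the profiles had been seen. Alternatives covered shared reads, cell filters, promoter windows, scaling, weights, minimums, experiments as a block and leaving out each library or batch. Mapping quality, downstream starts (also without Exp234_c11) and 0.5 reads added to both counts were chosen as alternatives after seeing the data. Python 3.11.15 with numpy 2.4.6, pandas 2.3.3, scipy 1.17.1 and matplotlib 3.10.9, and R 4.3.3 with limma 3.58.1, were used.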

Additional observations from a re-analysis of the deposited data

Results flagged for a closer look

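Within 48 groups of 4 to 10 libraries or batches, 1 value lay far from the others in 14. Such a rule flags about 1 in 20 independent groups, but these groups share libraries, batches and cells, so the count is a description. Of the 14, 9 were shares of the batch Exp156. At 1000 UMIs per cell it had 45% of cells with a read of Esrrb (next batch 25.6%), 40.4% for Tfcp2l1 (17.1%), 25.9% for Nr5a2 (16.7%), 16.1% for Zfp42 (8.59%) and 3.15% for Prdm14 (1.5%). Its shares of cells with 2 or more reads were 11.6% for Esrrb (3.95%), 8.26% for Tfcp2l1 (2.51%), 3.69% for Nr5a2 (1.44%) and 1.59% for Zfp42 (0.564%).

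The level of Klf2 in the inAGTuC library Exp261_c16 was 8.57, with the nearest library at 17.4. The library Exp234_c11 had 58.1% of the reads on Klf2 on the sense strand (nearest 84.6%) and 44.9% of those on Nr5a2 (77.9%). Thinned shares of cells with 2 or more reads stood out where nearly all batches were at 0, at 0.00673% for Klf2 in Exp236 (nearest 0) and at 0.293% for Prdm14 in Exp160 (nearest 0.000869%). These are expected shares and not counts of cells. The Prdm14 value came from 1 cell with 4 reads of 1 UMI.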

How the results depend on the processing

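Each alternative kept the number of the 8 genes called for level within 1.5 times of 6 for AGTuC against inAGTuC and at 0 for scGRO–seq against inAGTuC. Leaving out 1 library or batch gave 4 to 7 and 0 to 0 genes, 2 to 4 for the promoter share against scGRO–seq and 1 to 3 against inAGTuC, 82.08 to 86.04% of cells with a read and 30.31 to 38.09% with 2 or more. In the main fits 33.5% of all genes were called for level between AGTuC and inAGTuC. For the promoter share it was 86.9% against scGRO–seq and 77.9% against inAGTuC. A promoter window of 1000 bp gave 5 of the 8 genes against scGRO–seq, where 9307 of 10948 genes were called. Against inAGTuC 1 of the 8 genes was left when shared reads were counted in each library (8362 of 11449 genes called in all) and when 0.5 reads were added to both counts (7416 of 10917). This was also so without weights (6871 of 10917) and with a minimum of 5 reads (10053 of 14619). For single genes, 1 of the alternatives moved the share of cells with a read, and that with 2 or more, for each of Klf2, Klf5, Nr5a2 and Zfp42.

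Signs turned only where no difference was called. For scGRO–seq against inAGTuC these were Tbx3 (-0.218, shared reads counted), Tfcp2l1, Zfp42 and Prdm14 (0.002, 0.022 and 0.001, median of ratios), Prdm14 (0.037, mapping quality of 10) and Esrrb (0.19, Exp208 alone). For the promoter share against scGRO–seq they were Esrrb (0.14) and Zfp42 (-0.385) at 1000 bp, Nr5a2 at 250 bp (-0.484) and with shared reads (-0.137), and Prdm14 with 0.5 reads added (-0.479). Against inAGTuC they were Klf2 (-0.609) and Zfp42 (-0.26) at 1000 bp, Tbx3 (0.091) and Nr5a2 (-0.042) at 250 bp, Tbx3 at the outermost start (0.037) and Prdm14 with 0.5 reads added (-0.242). With 1 library or batch left out, scGRO–seq against inAGTuC ran from -0.29 to 0.27 for Tbx3, -0.35 to 0.022 for Tfcp2l1, -0.303 to 0.009 for Zfp42 and -0.274 to 0.011 for Prdm14. The promoter share of Esrrb against scGRO–seq ran from -2.581 to 0.022 and that of Tbx3 against inAGTuC from -0.617 to 0.173. The cause was not tested.

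Over all genes, 4945 were called for level between AGTuC and inAGTuC, against 1476 on a log2 scale with a pseudocount of 1, 3044 with experiment as a random block, 2503 without Exp125c_c01 and 819 without Exp125c_c02. Of the calls, 49.8% were higher in AGTuC, 35.8% with median-of-ratios scaling, which moved the median of all genes from 0.19 to -0.05, and 75.5% without Exp125c_c02. Between scGRO–seq and inAGTuC 99 genes were called without Exp261_c16. No paired analysis was possible because the titles carry no replicate numbers, and of the experiments that the titles name, only Exp208 has both scGRO–seq and inAGTuC among what was fitted, and none has AGTuC with another assay. The main fits took libraries of 1 experiment as independent, although the correlation within experiments was 0.596 for level and 0.349 for the promoter share. With experiment as a random block Nr5a2 lost its call for level (0.84) and Klf2 that for promoter reads against scGRO–seq (0.44). Depth limits Prdm14 and Klf2 most, at 79 and 71 body reads in all batches together.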
